A study of Homo sapiens with 6 samples.

Results

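The ligands of the TNF family examined here are 10 genes, TNF, LTA, LTB, TNFSF4, TNFSF9, TNFSF10, TNFSF13, TNFSF13B, TNFSF14 and CD70, out of 56638 genes in the data. They were chosen by symbol, and the level of a gene is the sum of TPM over every transcript of that symbol, because TNF, LTA and LTB appear in the annotation under 8, 7 and 8 gene IDs. TPM is a transcript's abundance corrected for its length and expressed relative to all transcripts of a library. The levels were measured in KMS27, an established line of malignant plasma cells from multiple myeloma. The HA-TAZ group (HA-TAZ 1, 2 and 3) overexpressed TAZ, a transcriptional coactivator of the Hippo pathway encoded by WWTR1, with an HA peptide tag. The comparison group is labelled wild type KMS27 and its libraries are called control a, b and c. The labels give no promoter, vector, clone or time for the HA-TAZ cells. They do not say whether the control cells carried a construct, although the control sample titles contain HA too and the columns taken as control are named scr, a name in no label. All 6 libraries came from total RNA depleted of ribosomal RNA and sequenced from both ends. They were prepared in triplicate, and nothing states that the 3 of a group were separate cultures, so p-values measure only the spread between these libraries.

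Ligands of the TNF family are mostly membrane proteins that assemble into trimers and bind receptors of the TNF receptor family on the same or a neighbouring cell. Some are cut from the surface and act as soluble cytokines. Receptor binding recruits TRAF adaptor proteins and activates NF-kB, and several of the ligands are themselves NF-kB target genes. In the B cell lineage, TNFSF13 (APRIL) and TNFSF13B (BAFF) are known as survival factors of B cells and plasma cells, and CD70 as the ligand of the memory B cell receptor CD27.

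WWTR1 checked the labels, with 293, 306 and 293 TPM in the HA-TAZ libraries and 2.69, 2.22 and 1.69 TPM in the controls. All 9 plasma cell markers of a fixed list were at a mean of at least 1 TPM. Their summed level was 591 to 644 TPM with HA-TAZ and 691 to 795 TPM in the controls, whereas in TPM scaled as described below it was 664 to 696 and 653 to 677, which overlap. CD38, a surface enzyme of plasma cells, was lower in HA-TAZ and SLAMF7, a surface receptor of plasma cells, was higher (limma adjusted p = 0.020 and 0.011). TPM sums to the same total in each library and holds no read depth. A median-of-ratios factor therefore divided each library before testing, and it was 0.864 to 0.966 in HA-TAZ and 1.06 to 1.21 in the controls, so the scaling itself differed between the groups. Of 21011 genes with a mean of at least 1 TPM, 1790 passed an adjusted p of 0.05 in limma, 8.52% of those tested. Of these, 1153 were higher in HA-TAZ (5.49%) and 637 lower (3.03%). The share of calls that were higher was 64.4% with this scaling, 54.2% with upper quartile scaling and 7.18% of 3693 calls without scaling. Over the tested genes the median log2 fold change was -0.02 with scaling and -0.27 without it.

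CD70 and LTA were the most abundant of the 10 ligands, and both were higher with HA-TAZ. Of the summed TPM of these 10 and 8 further TNF family ligands, the pair made up 90.0% to 92.2% with HA-TAZ and 78.3% to 81.8% in the controls. CD70 was 2.43-fold and LTA 2.00-fold higher as means of scaled TPM, or 1.97-fold and 1.61-fold in TPM as deposited. The other 8 ligands together held 2.97 to 5.48 TPM in any library, against 66.2 to 69.1 TPM for CD70 alone in HA-TAZ. Of the 10 ligands, 4 reached the mean of 1 TPM needed for testing, 2 of these were called higher and none lower. The count of the 10 ligands called lower was also 0 under each of the 14 alternative settings. The ligands below the filter, with TNFSF14 and TNFSF4 and their lower HA-TAZ means among them, were tested only in the setting without a filter. In the reported fit none of the 4 had a negative fold change with an unadjusted p below 0.05. Of the 8 further ligands, TNFSF8 had a log2 fold change of -0.51 (limma unadjusted p = 0.0061, limma adjusted p = 0.057). Among all tested genes 5.49% were called higher and 3.03% lower, and 4 genes are too few to set against that share.

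**Figure D1:**
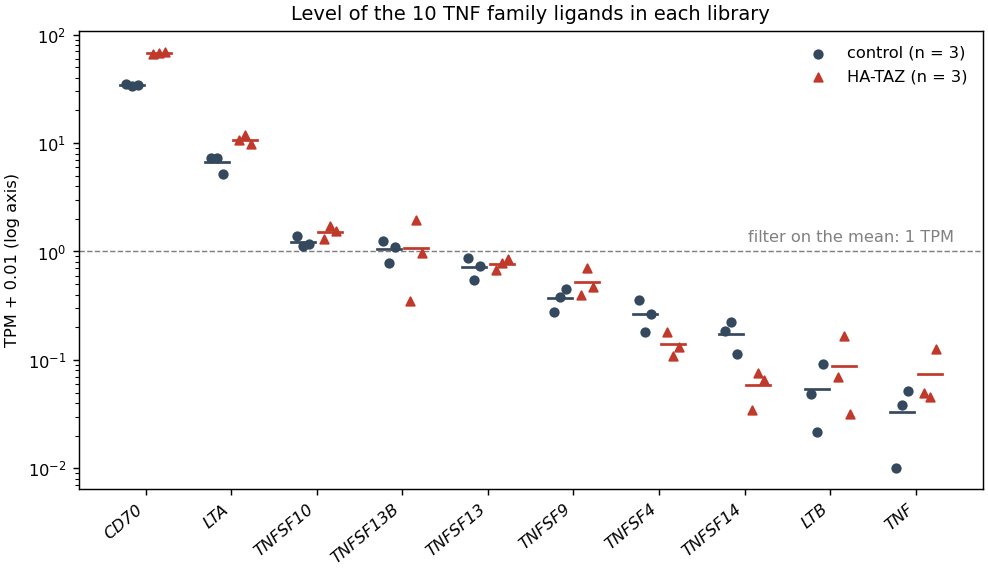
TPM of each ligand in each library on a log axis, with 0.01 added so that a value of 0 can be drawn. Circles are the 3 control libraries, triangles the 3 HA-TAZ libraries and bars the group means. CD70 and LTA stand above 5 TPM in every library and the HA-TAZ values lie above the controls in both, while 6 ligands have means below the dashed line at 1 TPM.

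CD70 is the ligand of CD27, and outside tumours it appears mainly on activated lymphocytes and dendritic cells. Its level was 66.2, 67.3 and 69.1 TPM in HA-TAZ 1, 2 and 3, and 34.8, 33.9 and 34.3 TPM in control a, b and c. Every HA-TAZ library lay above every control, and the libraries of a group differed by less than 3 TPM. The means were 67.5 ± 1.48 TPM with HA-TAZ and 34.3 ± 0.444 TPM in the controls (SD, n = 3 each). The log2 fold change on scaled TPM + 1 was 1.25 ± 0.07 (SE, 95% interval 1.09 to 1.42, limma adjusted p = 0.0016). That change ranked 132 among the 21011 tested genes, counted from the largest increase. CD70 stayed called in all 14 alternatives, with log2 fold changes from 0.96 on TPM as deposited to 1.31 without HA-TAZ 2 and adjusted p-values in limma from 0.00087 to 0.017. CD70 is also a marker of activated T cells, and the summed level of 5 T cell markers was 1.34 to 1.47 TPM with HA-TAZ and 2.25 to 2.56 TPM in the controls. In scaled TPM that sum was 1.39 to 1.65 with HA-TAZ and 1.86 to 2.34 in the controls. Of these 5 markers, 2 were at 0 in some library. CD3D, which encodes a chain of the T cell receptor complex, was at 0 in all 3 HA-TAZ libraries and in control a. CD3G, another chain of that complex, was at 1.10, 1.21 and 1.25 TPM with HA-TAZ and 1.64, 1.86 and 1.84 TPM in the controls. In scaled TPM the CD3G groups overlapped, and its log2 fold change of -0.17 was not called (limma adjusted p = 0.35). CD3D and CD3G were chosen after their values were seen. In bulk RNA, more cells with a transcript and more of it per cell cannot be told apart.

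Both main CD70 transcripts rose together. ENST00000245903.3 is a coding transcript of 3 exons on chromosome 19 (GENCODE release 29, GRCh38, chr19:6585839-6591152, minus strand). It was at 52.7, 54.6 and 54.1 TPM with HA-TAZ and 27.3, 26.0 and 26.8 TPM in the controls. ENST00000423145.3 was at 12.6, 12.4 and 14.1 TPM with HA-TAZ and 7.27, 7.22 and 6.69 TPM in the controls. Their log2 fold changes were 1.28 ± 0.07 and 1.07 ± 0.10 (SE), with limma adjusted p-values of 0.0056 and 0.020 among 57448 tested transcripts, of which 324 were called (0.564%). The share of CD70 taken by ENST00000245903.3 was 79.7% ± 1.49 in HA-TAZ and 77.7% ± 0.941 in the controls (SD, n = 3 each, exact two-sided permutation p = 0.2, where the smallest p that 3 against 3 libraries allow is 0.1). The remaining CD70 transcript, ENST00000597430.2, whose annotated coding sequence in GENCODE release 29 covers 2 exons only, was below 1 TPM in every library. The authors' deposited table, which tests single transcripts with sleuth, held q-values of 1.8e-38 and 1.1e-11 for the 2 main CD70 transcripts. Among all transcripts with statistics in the authors' deposited table, 5.68% had a q-value below 0.05.

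**Figure D2:**
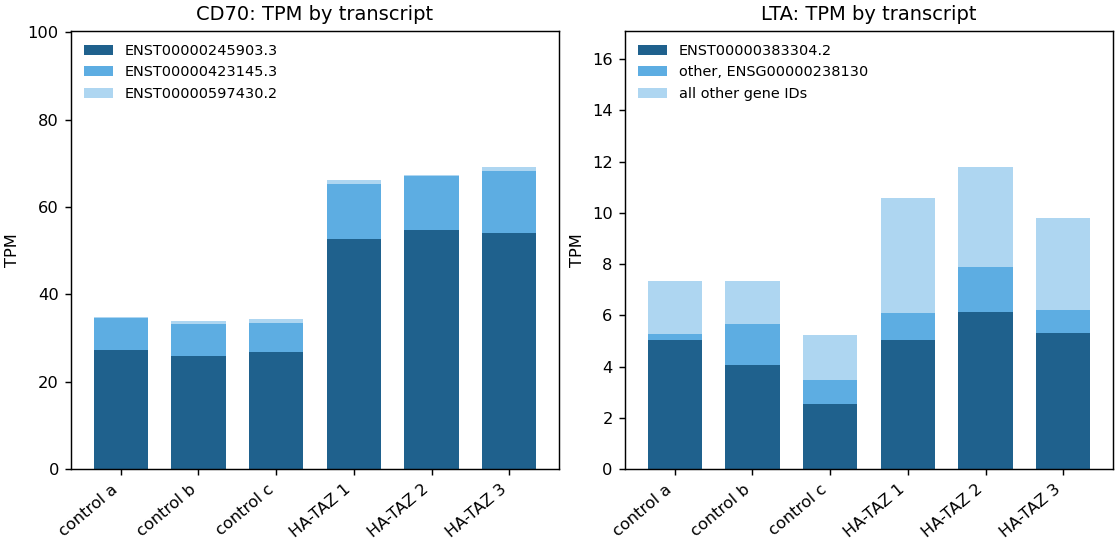
TPM of CD70 (left) and LTA (right) in each library, stacked by transcript for CD70 and by the main transcript, the other transcripts of its gene ID and all other gene IDs for LTA. The CD70 bars rise from a mean of 34.3 TPM to 67.5 TPM in HA-TAZ with both main segments larger, and the LTA bars gain most in the segment of the other gene IDs.

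The 3 genes whose profile over the 6 libraries was most like that of CD70, among 11862 genes with a mean of at least 5 TPM, were GRINA, IRF1 and PSMB5. Pearson's r with CD70 on log2(scaled TPM + 1) rounded to 0.999 for each, over 6 libraries that fall into the study's 2 groups, so the value mostly describes the step between the groups. GRINA, a membrane protein gene of the TMBIM family, was at 145, 146 and 146 TPM with HA-TAZ and 82.0, 81.5 and 79.6 TPM in the controls. IRF1, a transcription factor of interferon responses, was at 42.8, 42.9 and 43.3 TPM with HA-TAZ and 26.7, 25.2 and 24.8 TPM in the controls. PSMB5, a catalytic subunit of the proteasome, was at 61.3, 66.3 and 64.5 TPM with HA-TAZ and 61.6, 57.0 and 56.6 TPM in the controls. Those PSMB5 values overlapped and separated only after scaling, where the log2 fold change was 0.43 ± 0.04 (SE, limma adjusted p = 0.0093).

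LTA, TNF and LTB lie next to each other in the major histocompatibility complex on chromosome 6. LTA encodes lymphotoxin alpha, which is secreted as a trimer or held on the membrane by lymphotoxin beta, the product of LTB, and TNF encodes the cytokine that gave the family its name. The sequences of the 250 bases before each gene's start are shown because these neighbours had very different levels. They come from RefSeq (GRCh38.p14), whereas the authors' values were made on GRCh37. Capitals mark matches to the NF-kB motif, GGG and CC with any 5 bases between them, on either strand, so that a match on the other strand reads GG, any 5 bases and CCC. The windows are chr6:31571849-31572098 for LTA and chr6:31575315-31575564 for TNF, both on the plus strand, and chr6:31582426-31582675 for LTB on the minus strand.
LTA: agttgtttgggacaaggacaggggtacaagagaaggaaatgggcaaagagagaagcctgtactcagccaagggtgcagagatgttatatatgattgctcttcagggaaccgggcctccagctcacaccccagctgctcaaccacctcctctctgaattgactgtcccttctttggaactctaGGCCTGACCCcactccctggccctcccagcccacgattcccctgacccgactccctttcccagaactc
TNF: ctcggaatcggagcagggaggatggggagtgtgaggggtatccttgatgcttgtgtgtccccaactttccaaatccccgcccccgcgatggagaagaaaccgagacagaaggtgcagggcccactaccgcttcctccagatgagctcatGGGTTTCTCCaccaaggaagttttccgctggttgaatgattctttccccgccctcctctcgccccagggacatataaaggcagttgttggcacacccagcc
LTB: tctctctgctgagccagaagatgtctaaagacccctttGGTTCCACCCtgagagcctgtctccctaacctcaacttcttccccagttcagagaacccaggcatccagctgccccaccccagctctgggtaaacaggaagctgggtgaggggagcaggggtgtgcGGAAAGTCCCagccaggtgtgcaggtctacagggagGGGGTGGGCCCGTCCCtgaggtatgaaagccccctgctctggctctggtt
The LTA window shown held 1 match, starting 68 bases before the gene's start, and a second LTA window in the table (chr6:31572039-31572288), which belongs to a start further downstream, held 3 overlapping matches starting 104 to 102 bases before that start. The TNF window held 1 match at 101 bases, and the LTB window 6 matches, of which 4 overlap each other. The same motif was in 54.4% of 35116 such windows of all genes, so a match is common. The table held 14 windows, some of them overlapping, for the 9 ligands other than CD70, and 11 of the 14 held the NF-kB motif, in 7 of the 9 genes. The TEAD motif GGAATG, the motif of the DNA-binding partners of TAZ, was in 0 of the 14 windows and in 11.9% of all windows. The AP-1 motif TGANTCA was in 2 of the 14, the overlapping pair of TNFSF14, and in 6.57% of all windows. With 9 genes, none of them CD70, the windows are too few to set these counts against those shares.

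LTA was at 10.6, 11.8 and 9.78 TPM in HA-TAZ 1, 2 and 3, and 7.35, 7.34 and 5.23 TPM in control a, b and c. All HA-TAZ values lay above all control values, and control c was the lowest. The means were 10.7 ± 1.01 TPM with HA-TAZ and 6.64 ± 1.22 TPM in the controls (SD, n = 3 each). The log2 fold change on scaled TPM + 1 was 0.90 ± 0.11 (SE, 95% interval 0.62 to 1.17, limma adjusted p = 0.016), which ranked 310 from the largest increase. The call of LTA was lost when 1 HA-TAZ library was left out. Its limma adjusted p was then 0.075 without HA-TAZ 1, 0.069 without HA-TAZ 2 and 0.053 without HA-TAZ 3, while the log2 fold change stayed between 0.88 and 0.95. Without a control library it stayed called, with a limma adjusted p of 0.033 to 0.046.

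The annotation lists LTA under 7 gene IDs with 34 transcripts, copies of the region on alternative haplotypes among which reads were divided. ENSG00000238130 held 66.4% of LTA, 3 IDs had the same 6 values as each other and 11.1% each, and the last 3 were below 0.1 TPM in the mean. Tested alone, ENSG00000238130 had a log2 fold change of 0.68 ± 0.15 (SE) and missed the threshold (limma adjusted p = 0.054). Its transcript ENST00000383304.2 was at 5.04, 6.12 and 5.33 TPM with HA-TAZ and 5.02, 4.05 and 2.52 TPM in the controls. Here HA-TAZ 1 and control a nearly coincided in TPM, whereas in scaled TPM the groups did not overlap. The log2 fold change of this transcript was 0.69 ± 0.17 (SE) and missed the threshold (limma adjusted p = 0.098). The transcript ENST00000418386.2, whose values 2 other haplotype transcripts repeat, was at 1.16, 0.958 and 0.727 TPM with HA-TAZ and 0.340, 0.410 and 0.361 TPM in the controls. In the authors' deposited table, 4 LTA transcripts had a q-value below 0.05, all higher in HA-TAZ, of which 3 are those haplotype copies with 1 identical q-value (0.0018) and the fourth is ENST00000383304.2 (0.015).

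TNF and LTB, the immediate neighbours of LTA, were nearly silent in both groups. TNF was at 0.0399, 0.0350 and 0.117 TPM with HA-TAZ and 0, 0.0280 and 0.0419 TPM in the controls. LTB was at 0.0589, 0.155 and 0.0216 TPM with HA-TAZ and 0.0381, 0.0116 and 0.0821 TPM in the controls. The groups overlapped in both genes, both were below the level tested, and the authors' deposited table had no statistics for any of their transcripts. Of 8 further genes of this region, 6 were tested and 2 were called higher with scaling, PRRC2A and BAG6, with log2 fold changes of 0.29 and 0.19 (limma adjusted p = 0.048 and 0.042) that turned to -0.01 and -0.11 on TPM as deposited. Neither kept its call when any library was left out. The share called higher among all tested genes was 5.49%.

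TNFSF14 (LIGHT) binds the lymphotoxin beta receptor and the receptor TNFRSF14, and lies near CD70 and TNFSF9 on chromosome 19. Its level was 0.0244, 0.0652 and 0.0550 TPM with HA-TAZ and 0.173, 0.215 and 0.104 TPM in the controls. All HA-TAZ libraries lay below all controls, in scaled TPM as well (exact two-sided permutation p = 0.1, the smallest possible). At this level the result rests on few reads. The authors' deposited table implies 7.20 estimated counts per library for TNFSF14, against 2238 for CD70 and 645 for LTA. These are geometric means over the libraries, summed over the transcripts with statistics (1 of 3 for TNFSF14, 3 of 3 for CD70 and 9 of 34 for LTA). The lowest q-value of TNFSF14 there was 0.51. TNFSF9 (4-1BB ligand), which stimulates T cells through TNFRSF9, was at 0.384, 0.694 and 0.465 TPM with HA-TAZ and 0.266, 0.374 and 0.440 TPM in the controls. Those TNFSF9 values overlapped, whereas in scaled TPM the groups did not (exact two-sided permutation p = 0.1), so their separation depended on the scaling. TNFSF4 (OX40 ligand), another T cell costimulator, was at 0.171, 0.0996 and 0.121 TPM with HA-TAZ and 0.348, 0.170 and 0.256 TPM in the controls, where HA-TAZ 1 and control b overlapped. Of the 8 other genes examined around CD70 on chromosome 19, 6 were tested and only GPR108 was called higher, with a log2 fold change of 0.24 (limma adjusted p = 0.045) that was -0.05 on TPM as deposited and that lost its call whenever a library was left out. The share called higher among all tested genes was 5.49%.

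TNFSF10 (TRAIL), the ligand of the death receptors TNFRSF10A and TNFRSF10B, was at 1.29, 1.73 and 1.52 TPM with HA-TAZ and 1.37, 1.12 and 1.16 TPM in the controls. HA-TAZ 1 lay below control a in TPM, and only scaling separated the groups. The log2 fold change was 0.35 ± 0.10 (SE, 95% interval 0.10 to 0.60) and missed the threshold (limma adjusted p = 0.084). It was not called under any of the 13 alternatives that could test it, with limma adjusted p-values from 0.055 to 0.32, and its log2 fold change was 0.57 with a pseudocount of 0.1.

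Neither B cell survival factor was called, and TNFSF13 was too low to be tested. TNFSF13B was at 0.337, 1.92 and 0.968 TPM with HA-TAZ and 1.24, 0.771 and 1.10 TPM in the controls. Its HA-TAZ libraries spread wider than the controls and enclosed them. The log2 fold change of TNFSF13B was 0.10 (95% interval -0.60 to 0.80, limma adjusted p = 0.83), which leaves room for a change of either sign. It was 0.39 without HA-TAZ 1 (limma adjusted p = 0.33), and without HA-TAZ 2 the mean fell below the level tested. The 5 monocyte or macrophage markers, a cell type known to make TNFSF13B, summed to 2.74 to 3.36 TPM with HA-TAZ and 2.54 to 3.06 TPM in the controls, or 3.17 to 3.48 and 2.19 to 2.89 in scaled TPM, and their part in these values was not tested. TNFSF13 was at 0.670, 0.777 and 0.846 TPM with HA-TAZ and 0.861, 0.532 and 0.728 TPM in the controls, below the level tested and overlapping. TNFSF13 separated only in scaled TPM (exact two-sided permutation p = 0.1), and its difference of 0.21 scaled TPM shrank to 0.06 TPM without scaling. Of 6 genes near TNFSF13 on chromosome 17, 3 were tested and none was called in either direction. The most abundant of them were EIF4A1, a translation factor, with a log2 fold change of 0.21, and POLR2A, the large subunit of RNA polymerase II, with -0.05 (limma adjusted p = 0.079 and 0.65).

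Among the 6 ligands below the level tested, TNFSF9 and TNFSF13 lay higher and TNFSF14 lower without overlap of the scaled groups. Groups did not overlap in either direction in 39.0% of all tested genes, and in 17.7% of the 14955 genes between the mean level of TNF and the level tested. In rank order of mean TPM, CD70 stood above LTA and LTA above TNFSF10 in both groups without overlap between neighbours. The ranges of TNFSF10 and TNFSF13B overlapped, as did those of TNFSF13B and TNFSF13, in both groups. CD70 made up 79.6% to 83.3% of the summed TPM of the 10 ligands in HA-TAZ and 74.9% to 79.0% in the controls. Within a library CD70 exceeded LTA 6.26-, 5.71- and 7.06-fold in HA-TAZ 1, 2 and 3, and 4.73-, 4.62- and 6.57-fold in control a, b and c. Those ratios are free of the scaling, and the groups overlapped through control c, whose LTA level was low.

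**Figure D3:**
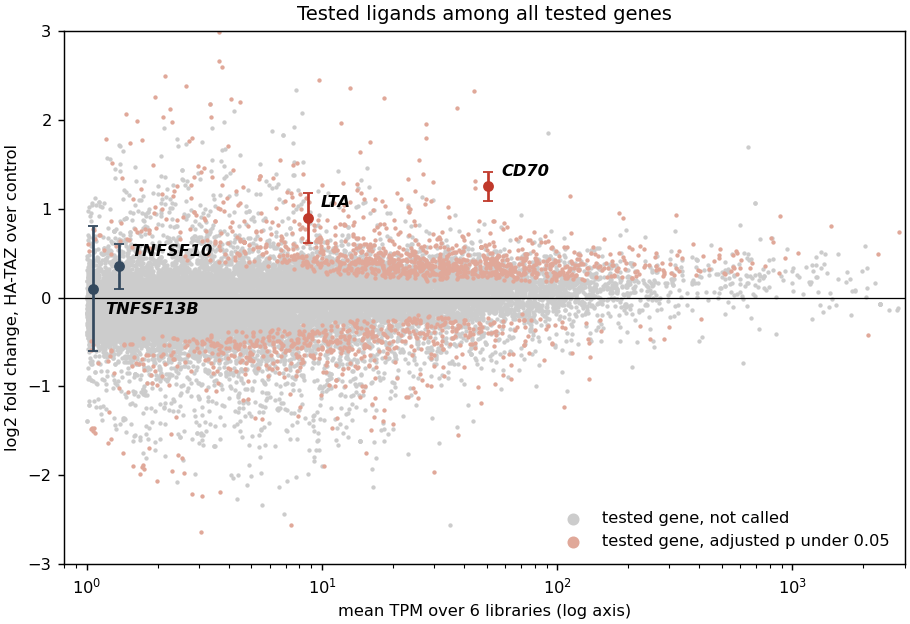
Log2 fold change (HA-TAZ over control) of each tested gene against its mean TPM on a log axis, with called genes in light red and the 4 tested ligands as large points with 95% intervals. CD70 and LTA lie above the bulk of genes of their level, TNFSF10 and TNFSF13B within it. Outside the axes lie 27 genes.

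No other TNF family ligand was called in either direction. Of 8 further ligands, TNFSF8 (CD30 ligand) alone was tested, and it was at 2.81, 2.40 and 2.07 TPM with HA-TAZ and 5.46, 4.62 and 4.16 TPM in the controls. The TNFSF8 groups did not overlap, but its log2 fold change of -0.51 missed the threshold (limma adjusted p = 0.057), and it passed as lower on TPM as deposited (-0.75, limma adjusted p = 0.030). EDA, the ligand of ectodysplasin receptors, was at 0.417, 0.570 and 0.998 TPM with HA-TAZ and 1.41, 0.900 and 1.41 TPM in the controls, and these values overlapped.

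Of 16 receptors of the 10 ligands, 9 were tested, 1 was called higher and 0 lower, with a median log2 fold change of 0.20 that was -0.06 on TPM as deposited. Among all tested genes 5.49% were called higher and 3.03% lower. The receptor called was TNFRSF9 (4-1BB), the receptor of TNFSF9, at 2.30, 2.72 and 2.10 TPM with HA-TAZ and 1.06, 0.581 and 0.656 TPM in the controls. Its log2 fold change was 1.11 ± 0.12 (SE, limma adjusted p = 0.012). The call was lost without HA-TAZ 1, HA-TAZ 2 or control b (limma adjusted p = 0.060, 0.058 and 0.0502), and with a pseudocount of 0.1 the log2 fold change was 1.83. CD27, TNFRSF1A and TNFRSF17 were picked from the list after its values were seen, and not every receptor of the called ligands is described. TNFRSF14, picked likewise, was at 8.59, 7.92 and 9.21 TPM with HA-TAZ and 5.50, 6.92 and 7.19 TPM in the controls. Those TNFRSF14 groups did not overlap, but its log2 fold change of 0.62 missed the threshold (limma adjusted p = 0.063). CD27, the receptor of CD70, was at 0.131, 0.185 and 0.324 TPM with HA-TAZ and 0.147, 0.0975 and 0.204 TPM in the controls, so CD70 was abundant in cells with very little RNA of its receptor. TNFRSF1A, which binds TNF and the lymphotoxin alpha trimer, was at 6.83 ± 0.936 TPM with HA-TAZ and 7.25 ± 1.64 TPM in the controls (SD, n = 3 each). TNFRSF17 (BCMA), the plasma cell receptor of TNFSF13 and TNFSF13B, was at 41.5 ± 0.790 TPM with HA-TAZ and 53.2 ± 2.51 TPM in the controls. The log2 fold change of TNFRSF17 was -0.05 with scaling and -0.35 on TPM as deposited, where it was called lower (limma adjusted p = 0.028).

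Of 8 genes that shed or process TNF family ligands, 7 were tested and 2 were called higher, and none lower. They were FRMD8, a stabiliser of the sheddase complex of ADAM17, and SPPL2A, an intramembrane protease that cleaves TNF stubs, with log2 fold changes of 0.45 and 0.39 (limma adjusted p = 0.036 and 0.013). The list's median was 0.02 with scaling and -0.27 without it, and on TPM as deposited no gene of the list was called higher and 1 lower, the sheddase ADAM10. FRMD8 was called in 1 and SPPL2A in 2 of the 6 fits with a library left out. Of 10 regulators of mRNA decay and stability, all were tested, 3 were called higher and none lower. The share over all tested genes, for this list and the shedding list, was 5.49% called higher and 3.03% lower. ZFP36 (tristetraprolin), which destabilises TNF mRNA, was at 19.0, 19.5 and 19.9 TPM with HA-TAZ and 9.66, 10.3 and 11.7 TPM in the controls. Its log2 fold change was 1.11 ± 0.12 (SE, limma adjusted p = 0.010), called in 13 of 14 alternatives and missed without HA-TAZ 1 (limma adjusted p = 0.056). ZFP36L1, its paralogue, and ELAVL1 (HuR), a stabiliser of AU-rich mRNAs, had log2 fold changes of 0.36 and 0.32 with scaling, 0.07 and 0.02 without it, and lost the call whenever a library was left out (limma adjusted p = 0.054 to 0.093 and 0.069 to 0.13). The median of the decay list was 0.20 with scaling and -0.09 without, where ZFP36 was called higher and TIA1 and RC3H1 lower.

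Of 24 receptor-proximal genes, 23 were tested, 5 were called higher and 0 lower, with a median log2 fold change of 0.23 that was -0.03 on TPM as deposited, where 2 were called higher and 1, TRAF5, lower. In the scaled fit 5.49% of all tested genes were called higher and 3.03% lower. TRAF1, an adaptor of TNF receptors, was at 3.79, 4.43 and 4.24 TPM with HA-TAZ and 0.452, 0.506 and 0.419 TPM in the controls. Its log2 fold change was 1.98 ± 0.10 (SE, 95% interval 1.75 to 2.22, limma adjusted p = 0.0010), beside 1.25 for CD70 and 0.90 for LTA. With a pseudocount of 0.1, which compresses low levels less, the values of TRAF1 and CD70 were 3.20 and 1.28. TNFAIP3 (A20), an inhibitor of NF-kB signalling, was at 37.8, 41.3 and 32.5 TPM with HA-TAZ and 22.2, 20.9 and 19.4 TPM in the controls, and its log2 fold change was 1.09 ± 0.08 (SE, limma adjusted p = 0.0037). Both stayed called in every alternative that tested them. CYLD, a deubiquitinase that restrains NF-kB, CFLAR, which blocks caspase 8 at death receptors, and RBCK1, a subunit of the linear ubiquitin ligase, had log2 fold changes of 0.58, 0.53 and 0.43. None of these was called on TPM as deposited (limma adjusted p = 0.062, 0.076 and 0.14), RBCK1 was not called with upper quartile scaling (0.051) or whenever a library was left out, and CYLD lost it without HA-TAZ 1 or HA-TAZ 2 (limma adjusted p = 0.058 and 0.054). BIRC2, named after its values were seen, was listed at 0 in all 6 libraries.

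All 9 NF-kB subunits and inhibitors were tested, 7 were called higher and none lower, with a median log2 fold change of 0.62, or 0.32 on TPM as deposited, where 6 were called higher. Among all tested genes 5.49% were called higher and 3.03% lower, and this list was chosen with earlier results of these data known. RELB, the subunit of the non-canonical pathway, was at 27.2, 26.7 and 27.8 TPM with HA-TAZ and 13.0, 14.7 and 15.0 TPM in the controls (log2 fold change 1.18 ± 0.11 SE, limma adjusted p = 0.0086). BCL3, a nuclear IkB protein, was at 21.0, 22.7 and 21.7 TPM with HA-TAZ and 12.1, 12.6 and 10.9 TPM in the controls (log2 fold change 1.11 ± 0.07 SE, limma adjusted p = 0.0021). The HA-TAZ values of both genes lay well above those of the controls, with no overlap. The inhibitors NFKBIE, NFKBIA and NFKBIB had log2 fold changes of 0.92, 0.62 and 0.54, and the subunits NFKB2 and REL 0.63 and 0.49. The subunits NFKB1 and RELA were not called, with 0.21 and 0.09 (limma adjusted p = 0.071 and 0.43). NFKB2 was called in 2, NFKBIB in 1 and REL in 0 of the 6 fits with a library left out. REL was also not called on TPM as deposited (limma adjusted p = 0.13). The count of 7 fell to 2 without HA-TAZ 1, 3 without HA-TAZ 2, 4 without HA-TAZ 3 and 4 without control b. BCL3 and NFKBIA were the 2 called whichever library was left out.

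**Figure D4:**
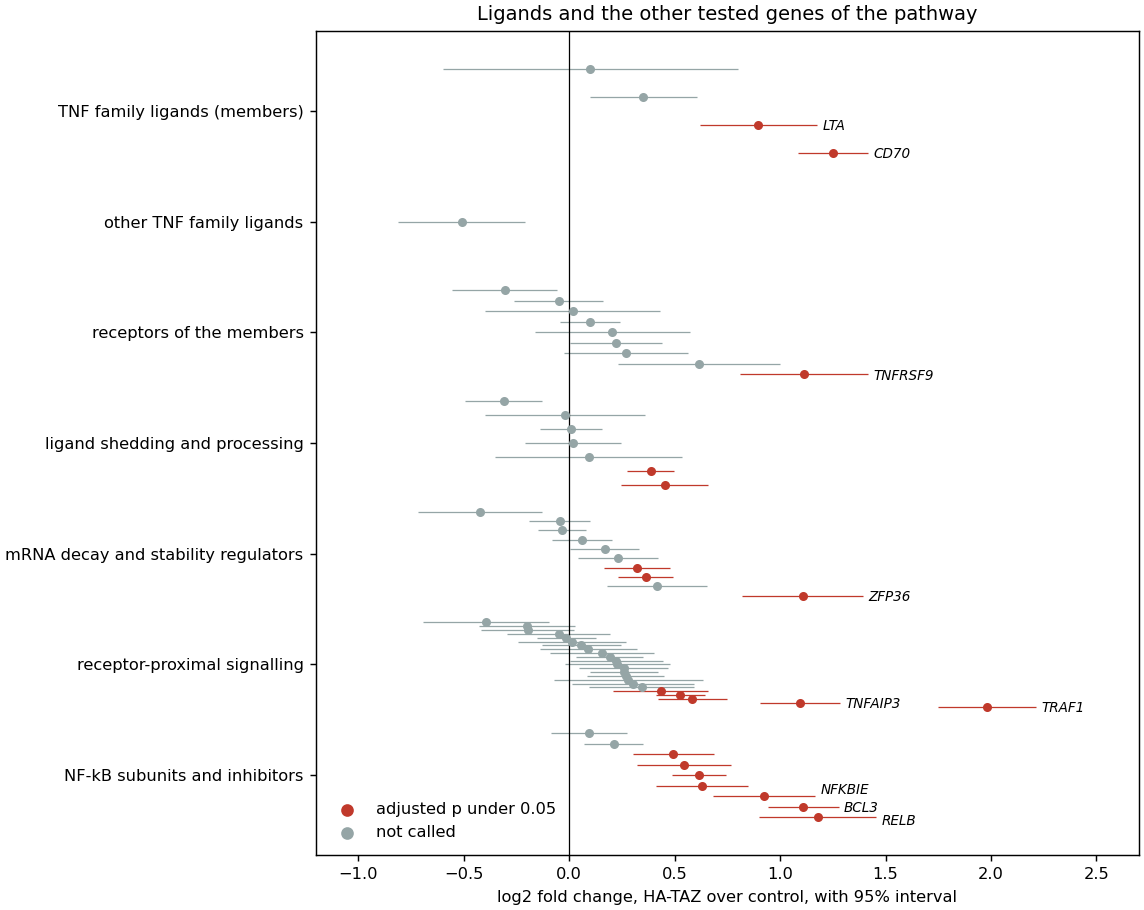
Log2 fold change of every tested gene in the ligand list and 6 lists of the pathway, with 95% intervals from limma. Red points passed an adjusted p of 0.05 and the called genes above 0.8 are labelled. Of the 9 NF-kB points 7 are red, none of them below 0, and TRAF1 has the largest change at 1.98.

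**Figure D5:**
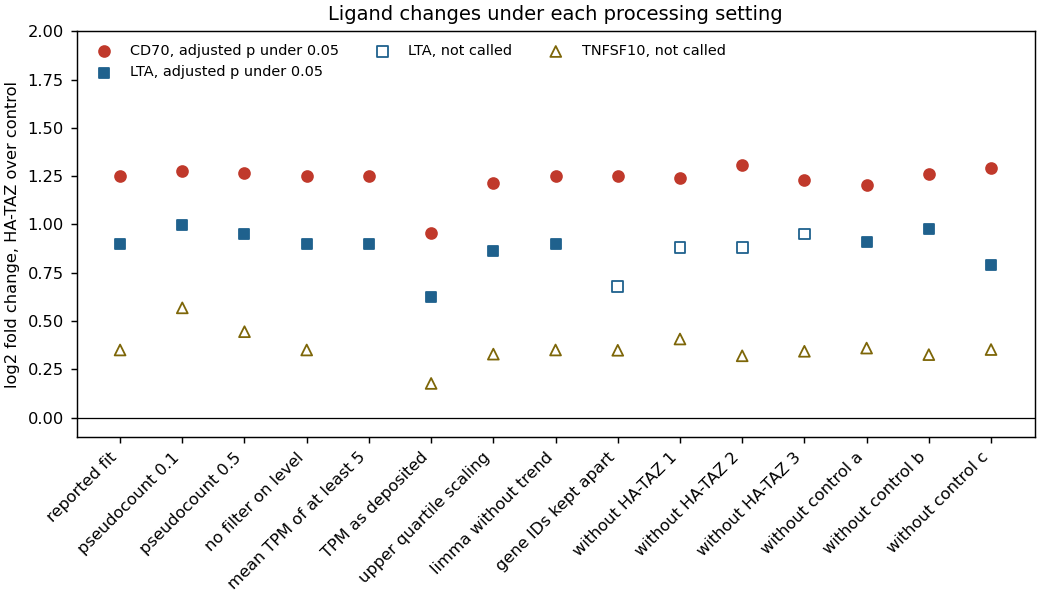
Log2 fold change of CD70 (circles), LTA (squares) and TNFSF10 (triangles) in the reported fit and under each alternative setting, filled where limma's adjusted p was below 0.05. TNFSF10 has no point at a mean TPM of at least 5. CD70 is filled throughout, LTA is open where an HA-TAZ library was left out or gene IDs were kept apart, and TNFSF10 is open throughout.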

How the data were processed

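The authors deposited TPM for 215170 transcripts in 6 libraries of total RNA, made with kallisto 0.46.0 on GRCh37 per the submitters' processing notes. The annotation release and the strand setting are not given in the sources used here, so values of overlapping genes are uncertain. The authors also deposited a transcript table made with sleuth 0.30.0, which per the file headers gives a p-value and a q-value, and an effect and a mean that its values show to be on a natural log scale. Columns named for TAZ were matched to the HA-TAZ samples by number. The other 3 columns carry the name scr, which is in no label and whose meaning is not stated, and were taken as wild type by elimination, so they are called control a, b and c.

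TPM was summed per symbol with the pairing in the authors' deposited table. Genes with a mean of at least 1 TPM were tested with limma 3.58.1 (R 4.3.3, with trend, two-sided) on log2(scaled TPM + 1), where scaled TPM is TPM divided by a median-of-ratios factor over 20101 tested genes above 0 in all libraries. P-values were adjusted by Benjamini-Hochberg over all genes tested, and transcripts were tested likewise. Fold changes on this scale understate those of genes near 1 TPM. Single values below the filter were compared by an exact permutation test. TPM carries no depth, so no counting interval was given. The script was tested on simulated data.

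The members and lists were chosen with earlier results of these data known. Named genes are the 10 ligands, every list gene past the threshold, the 2 most abundant genes of a list without a call, WWTR1, and the 3 genes most like CD70. A few others were named after their values were seen. The lists held other ligands, receptors, shedding, mRNA decay, receptor-proximal signalling, NF-kB, neighbouring genes and markers of 5 cell types. Of markers of other cell types, 1 of 5 for T cells, 1 of 5 for monocytes or macrophages, 1 of 3 for NK cells and 2 of 4 for stroma reached a mean of 1 TPM, and no sum exceeded 4.89 TPM in a library. Alternatives were pseudocounts of 0.1 and 0.5, no filter, a mean of at least 5 TPM, TPM as deposited, upper quartile scaling, gene IDs kept apart, limma without trend and leaving out each library. Promoter windows came from RefSeq (GRCh38.p14) and transcript structures from GENCODE release 29 (GRCh38).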

Additional observations from a re-analysis of the deposited data

How the results depend on the processing

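The count of called genes, 1790, was 3693 on TPM as deposited, 892 with limma without trend and 755 with no filter, and 1652 to 2361 under the other settings that kept all libraries. It was 132 without HA-TAZ 1, 227 without HA-TAZ 2, 319 without HA-TAZ 3, 495 without control a, 257 without control b and 706 without control c, where the group left with 2 libraries has less power. The 324 called transcripts became 120 on TPM as deposited, 2009 at a mean of at least 5 TPM, and 13 to 124 with a library left out (24, 13 and 23 without HA-TAZ 1, 2 and 3, and 113, 34 and 124 without control a, b and c). The 2 ligands called higher became 1 when gene IDs were kept apart, and 1 to 2 with a library left out, as LTA was lost without HA-TAZ 1, 2 or 3. The count of the 10 ligands called lower was 0 throughout, although those below the filter were tested only in the setting without a filter. On TPM as deposited the log2 fold changes of PRRC2A, BAG6 and GPR108 reversed to -0.013, -0.11 and -0.047, since that setting omits the scaling, and TNFSF13B, not called in either, moved to -0.04. With a library left out, called-higher counts ranged from 0 to 1 for receptors, 0 to 2 for shedding, 0 to 2 for mRNA decay, 3 to 4 for receptor-proximal genes and 2 to 6 for NF-kB genes, and were 0 for the neighbours. No paired analysis was possible because the control columns cannot be matched to single wild type samples. Ligands below 1 TPM rest on few reads, so changes in them may be undetectable here. The authors' deposited table had no statistics for TNF and LTB. For the rest it implied from 7.20 (TNFSF14) to 55.9 (TNFSF13) estimated counts per library, as geometric means summed over the transcripts with statistics.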
